A study of Mus musculus with 8 samples.

Results

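The subject was the difference between kidneys taken 1 month and kidneys taken 1 week after ischemia, measured as DNA methylation at CpG dinucleotides across the 19 autosomes. Members were windows of 1000 bp with at least 3 CpG positions that held at least 10 reads in both ischemia libraries, and 113947 windows with 1161360 positions met this rule. Of the windows, 91942 could also be formed from positions with 10 reads in all 8 libraries of the series, which yields 93730 windows when the sex chromosomes are included. The level of a window was its methylated reads as a percent of all its reads, and differences are percentage points of 1 month minus 1 week.

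Kidney cortex with outer medulla of wild-type male C57BL/6J mice was the source of the DNA. In the ischemia groups the pedicles of both kidneys were closed with clamps for 25 minutes, and reperfusion lasted 1 week or 1 month. The ischemia sham was operated without clamping. The libraries used as yardsticks came from kidneys after 7 days of unilateral ureteral obstruction (UUO), from the same model with 5AZA (5-azacytidine, an inhibitor of DNA methyltransferases) given at 1 mg/kg per day by intraperitoneal injection in saline, and from a sham of that model. UUO and UUO with 5AZA had 2 libraries each and the other 4 groups 1 library each, and the labels do not say whether a library came from 1 animal or from a pool. The 1 month library held 86411736 and the 1 week library 84699458 reads over CpG positions, in a series range of 57853745 to 86411736, with a median of 45 and 38 reads per covered position. With 1 library at each time, reperfusion time, animal and library preparation cannot be told apart. Whole tissue was measured, so a change within cells and a change in the mixture of cells cannot be told apart either.

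Methyl groups on the cytosines of CpG dinucleotides are copied to the new strand at replication by Dnmt1 with its partner Uhrf1, are set anew by Dnmt3a and Dnmt3b, and are oxidised by the Tet enzymes as a first step of their removal. Most CpG dinucleotides of a mammalian genome are methylated, while the dense CpG islands at many promoters are not, and levels in between are common at distal regulatory elements and in tissues of mixed cell types. Reduced representation bisulfite sequencing (RRBS) reads the ends of MspI fragments and so favours CpG-rich DNA. Renal ischemia with reperfusion injures the proximal tubule, which then regenerates or passes into lasting inflammation and fibrosis.

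With windows weighted equally, methylation was slightly higher at 1 month than at 1 week, and the excess was largest in windows of intermediate level. Over all member windows the mean level was 69.82% at 1 month and 69.14% at 1 week, a difference of 0.68 points with an SD of 4.17 over windows. The sign depended on the weighting: it was 0.57 with positions weighted equally, but -2.45 with all reads pooled and -0.12 with each library on its own positions. Pooled within windows at 30 to 70% in the ischemia sham, however, 1 month stood at 48.70% and 1 week at 47.49%. At 10 to 30% the pooled levels were 16.35% and 16.46%. The 1 month level was higher in 56.8% of windows and lower in 43.0%, and differences of 10 points or more were upward in 2.46% of windows and downward in 1.17%. Every one of the 19 autosomes had a higher mean at 1 month, with differences from 0.61 to 0.81 points. On a finer scale, 460 of 483 bins of 5 Mb had a mean above 0, and the bins ran from -0.38 to 1.86 points. The upward shift was therefore spread along the chromosomes in these 2 libraries, and was small beside the scatter of single windows.

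The end of an RRBS fragment can carry cytosines filled in during library preparation, and positions at fragment ends did read differently here. Ends were located from read depth, and a position was counted as inside a fragment when the nearest measured CpG on each side, at most 250 bp away, held at least 90% of its reads. By this rule 499765 positions, or 43.0%, were edge positions. A position with far fewer reads than its neighbours passes as inside, so the inside set can still hold positions that read differently. Such a position lay at -42 of the Henmt1 promoter described below, with 95.5% of 22 reads at 1 month. Its neighbour at -22 had 32.1% of 78 reads. In windows whose inside positions stood below 10% in the ischemia sham, the edge positions averaged 43.93% at 1 month and 43.31% at 1 week, whereas the inside positions averaged 4.70% and 4.56%. In windows at 90% or more, the edge positions stood at 95.71% and 95.35% and the inside positions at 93.23% and 92.85%. Edge positions thus raised the level of CpG-rich unmethylated windows in both libraries alike, and what made them read high was not tested. All results were therefore computed a second time on the 49718 windows with at least 3 inside positions. There the mean level was 42.49% at 1 month and 41.78% at 1 week, a difference of 0.71 points, and every autosome was again higher at 1 month, by 0.51 to 0.92 points.

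The difference followed the local methylation level. Level classes were taken from the ischemia sham, which does not enter the difference. Inside fragments, windows below 10% in the sham had a mean of 3.18% at 1 week and 3.40% at 1 month, a difference of 0.22 ± 0.007 points (counting SE over 20868 windows). Windows at 10 to 30% stood at 18.02% and 19.56%, a difference of 1.53 ± 0.05 points. The largest class difference was at 30 to 70%, with 52.06% at 1 week and 54.32% at 1 month, or 2.25 ± 0.062 points over 5893 windows. In that class 15.1% of windows were at least 10 points higher at 1 month and 5.92% at least 10 points lower. Windows at 70 to 90% differed by 0.78 ± 0.044 points and those at 90% or more by 0.40 ± 0.029 points. These errors cover read counting only, because each time had 1 library.

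Finer steps of the sham level gave a broad hump. Inside fragments the difference was 0.14 points at a sham level of 0 to 5%, 1.65 points at 15 to 20%, 3.17 ± 0.19 points at 35 to 40%, 2.18 points at 50 to 55%, 1.13 points at 70 to 75% and 0.36 points at 95 to 100%. With all positions the hump was lower and sat further to the right, at -0.01 points for 10 to 15%, 1.01 points for 35 to 40%, 2.13 ± 0.094 points for 55 to 60% and 0.35 points for 95 to 100%. The same class therefore holds different windows with and without edge positions.

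**Figure D1:**
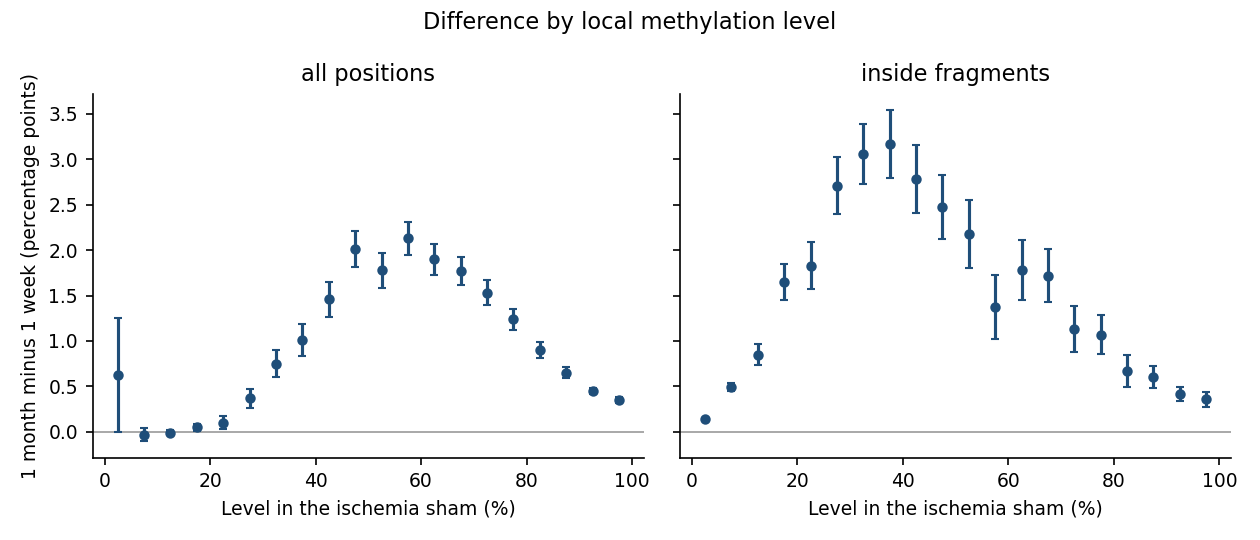
Mean difference between 1 month and 1 week of reperfusion in percentage points (y axis) against the methylation level of the ischemia sham in steps of 5% (x axis), for windows from all positions and from positions inside fragments. Points are means over windows and bars are 95% intervals of read counting, and the inside curve peaks at 3.17 points for sham levels of 35 to 40%.

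Density of CpG positions went with the level of a window. Inside fragments, windows of 3 to 5 positions differed by 0.94 points, those of 6 to 9 by 0.79, those of 10 to 19 by 0.44 and those of 20 or more by 0.23 points. Dense windows were mostly unmethylated, with a 1 week mean of 4.62% in the densest class against 64.05% in the sparsest. Within the class of 30 to 70%, the difference was 2.21 ± 0.077, 2.38 ± 0.11, 2.44 ± 0.14 and 2.31 ± 0.21 points from the sparsest to the densest windows, and the 4 density classes lay within their counting errors. With all positions the same class did fall with density, from 1.75 ± 0.049 and 1.62 ± 0.05 to 1.33 ± 0.051 and 1.01 ± 0.078 points. Inside fragments the class of 10 to 30% also fell, from 2.00 ± 0.095 points in the sparsest windows to 0.77 ± 0.064 in the densest. The 1 week levels of these windows were 20.58% and 14.46%. At 70 to 90% inside fragments the order was the opposite, from 0.71 ± 0.052 to 1.39 ± 0.26 points. With all positions, the class of 20 or more positions differed by 0.03 points.

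Pairs of libraries of the same group gave a scale for these differences on the windows shared by all 8 libraries. On that set 1 month exceeded 1 week by 0.62 points over all positions and by 0.66 points inside fragments. The 2 UUO libraries differed by -0.12 and 0.02 points, and the 2 libraries of UUO with 5AZA by 0.54 and 0.80 points, so the mean shift between the ischemia times was no larger than that between the 5AZA libraries. The shams of both models, operated separately, differed by -1.03 and -0.84 points. The 5AZA pair was also higher on all 19 autosomes, by 0.46 to 1.02 points inside fragments, and a like sign on every autosome is therefore seen between libraries of 1 group.

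**Figure D2:**
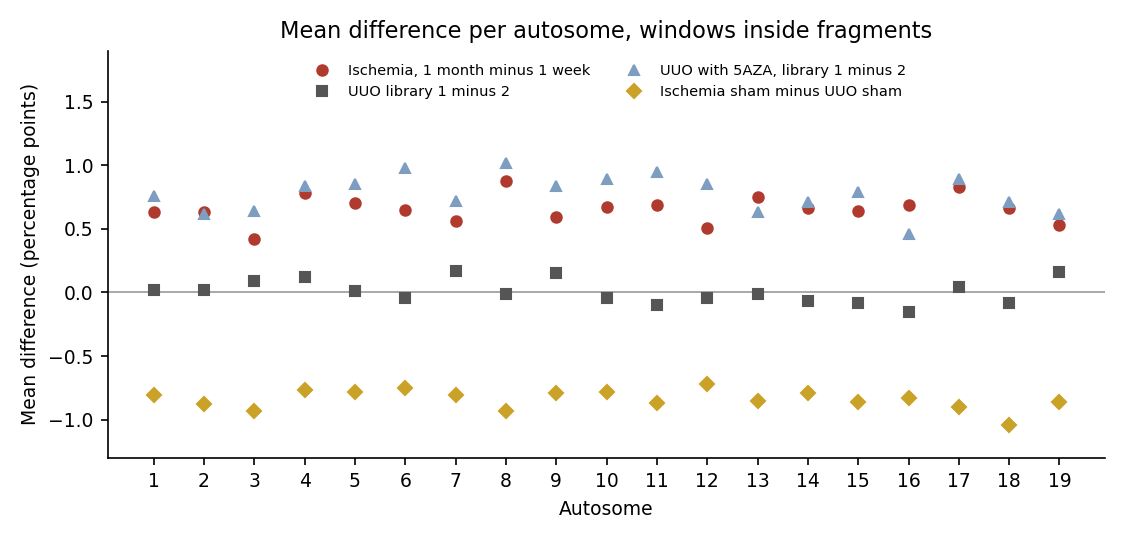
Mean difference in percentage points (y axis) on each autosome (x axis), for windows inside fragments shared by all 8 libraries. Each point is 1 pair of libraries on 1 chromosome: the ischemia pair ran from 0.42 to 0.88, the pair with 5AZA from 0.46 to 1.02, the pair of UUO libraries from -0.15 to 0.17 and the difference of the shams from -1.04 to -0.72 points.

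The profile over level classes differed between the pairs more than the mean did. In windows at 30 to 70% of the sham, the ischemia times differed by 1.51 points over all positions, against -0.03 for the UUO pair and 0.06 for the 5AZA pair. Inside fragments the same class gave 2.32 points for the ischemia times, 0.27 for the UUO pair and 1.5 for the 5AZA pair. At 10 to 30% inside fragments the values were 1.57, 0.26 and 0.51 points. At 90% or more the order turned, with 0.38 points for the ischemia times and 1.62 points for the 5AZA pair. The 5AZA pair thus differed more in highly methylated windows than the ischemia pair did, and less at intermediate levels. The 2 shams, of separate operations, differed as much as the ischemia times at intermediate level: with classes by the mean of both ischemia libraries, the ischemia sham minus the UUO sham was -2.26 points at 30 to 70% over all positions and -2.30 inside fragments, where 1 month exceeded 1 week by 1.39 and 2.32 points. Whether the ischemia profile differs from that of the other pairs was not tested.

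**Figure D3:**
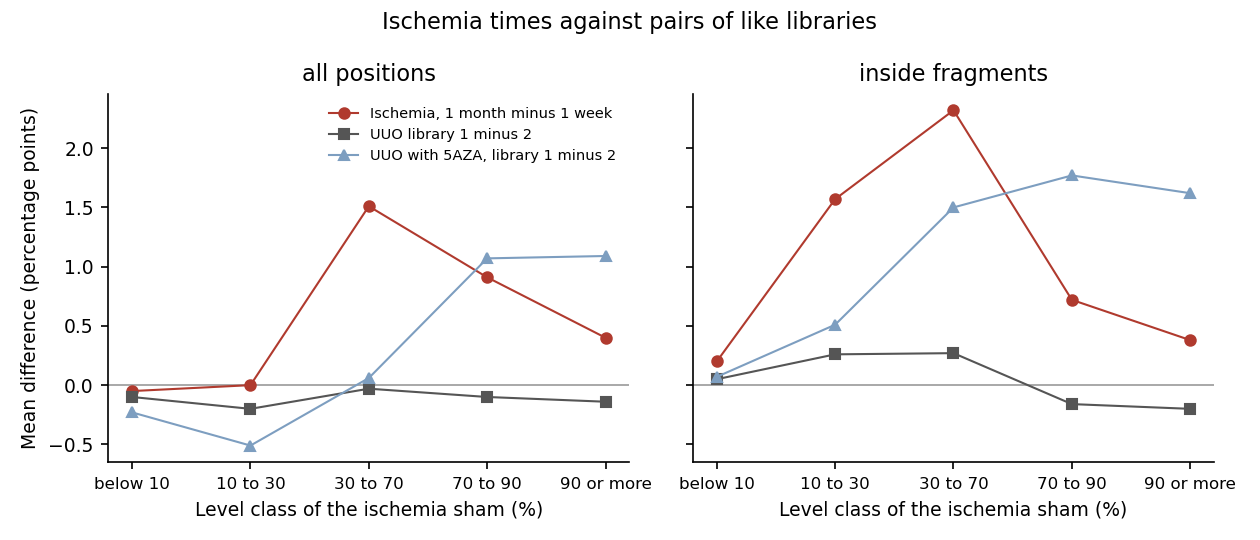
Mean difference in percentage points (y axis) by level class of the ischemia sham (x axis), on windows shared by all 8 libraries, for all positions and inside fragments. Each line is 1 pair of libraries, without error bars since a pair gives 1 value per class: the ischemia pair reached 2.32 points at 30 to 70% inside fragments, where the UUO pair stood at 0.27 and the 5AZA pair at 1.5. The shams are not drawn, because the ischemia sham sets the classes.

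Scatter between the ischemia libraries was of the size seen between like libraries. The mean chi-square of a window is 1 if all its counts are independent. A read counted at several CpG positions raises it without any spread between libraries. It was 1.73 for the ischemia pair, 1.75 for the UUO pair and 1.85 for the 5AZA pair over all positions. Inside fragments it was 2.44, 2.41 and 2.28. The SD over windows was 3.8 points for the ischemia pair, below the 4.17 of the UUO pair and the 4.80 of the 5AZA pair. Neighbouring windows moved together more in the ischemia pair: across 9812 pairs of adjacent windows inside fragments, Pearson's r of the difference was 0.15, against 0.049 and 0.098 in the UUO and 5AZA pairs. These correlations describe windows that share libraries and local level, and windows are not replicates.

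The shares of single positions by level were close at the 2 times, and inside fragments that of positions with no methylated read differed most. Over all positions the share at 100% differed most, with 6.96% at 1 week and 8.14% at 1 month. The share with no methylated read was 25.74% and 24.7% there. Inside fragments, 39.51% of positions had no methylated read at 1 week and 38.11% at 1 month, while 12.05% and 12.58% stood at 90% or more. The share at 10% or less was 63.76% at 1 week and 63.39% at 1 month, and positions between 10% and 90% made up 24.19% and 24.02%. The median depth at these positions was 65 reads at 1 month and 60 at 1 week, and its part in the share with no methylated read was not tested.

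Windows with large differences were few. Fisher's exact test (two-sided, Benjamini-Hochberg adjusted) on the reads of the 2 libraries counted windows whose adjusted p was under 0.01 and whose levels lay at least 25 points apart. It compares these libraries and not the conditions, and its p-values are too small because reads over several CpG positions and PCR copies are counted more than once. Of the member windows, 19 were higher at 1 month (0.0167%) and 10 were lower (0.00878%), together 0.0255%. Inside fragments 43 were higher (0.0865%) and 9 lower (0.0181%). On the shared windows the ischemia pair gave 15 counted windows (0.0163%), the pair of UUO libraries 25 (0.0272%), that with 5AZA 40 (0.0435%) and both shams 63 (0.0685%). Inside fragments these numbers were 32 (0.0760%), 36 (0.0855%), 56 (0.133%) and 41 (0.0974%). The ischemia times therefore gave no more such windows than did pairs of like libraries. By an adjusted p below 0.01 alone, the ischemia, UUO and 5AZA pairs had 668, 677 and 764 of 91942 windows. Inside fragments they had 881, 938 and 546 of 42104. Over all positions 495 of the ischemia windows were higher and 173 lower, against 282 and 395 for UUO and 346 and 418 for 5AZA. Inside fragments 675 were higher and 206 lower, against 487 and 451 for UUO and 357 and 189 for 5AZA. With the minimum of 25 points, these were 27 and 5, 21 and 15, and 49 and 7. An excess of higher windows inside fragments was therefore also seen between the 5AZA libraries. The ischemia libraries were the deepest, and the part of depth in these counts was not tested.

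A model with a spread between libraries called none of the windows by an adjusted p with a minimum of 10 points. Inside fragments and in 300 bp windows it also called none, but there its smallest adjusted p lay below 0.05. The minimum of 10 points was not reached by any window past that adjusted p. The quasi-binomial model over all 8 libraries took its spread from the UUO and 5AZA pairs, and at an adjusted p below 0.05 and 10 points it called 0 of 91942 windows (0.0%), with 0.101 as the smallest adjusted p. At an unadjusted p below 0.05 it had 4201 windows (4.57%), of which 2941 were higher at 1 month (3.20%) and 1260 lower (1.37%). edgeR also called 0, with 3539 windows at an unadjusted p below 0.05, and limma called 0, with 4207. Leaving out either library of UUO with 5AZA, so that the UUO pair alone gave the spread, raised the number called to 18, of which 14 were higher and 4 lower.

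The windows with the smallest p of this model had many reads and moderate differences. They were singled out after their values were seen, and genes are named by the nearest transcription start that could be placed on the files' coordinates, so nearer genes may exist. A window on chr4:155338001-155339000 (mm9), 19.7 kb downstream of the start of Ube2j2, a ubiquitin-conjugating enzyme of the endoplasmic reticulum, stood at 57.0% at 1 week, 57.1% in the ischemia sham and 80.1% at 1 month. Its UUO libraries stood at 80.2% and 76.7% and their sham at 67.7%, and the ischemia difference was 23.08 ± 3.15 points (SE; quasi-binomial adjusted p = 0.428). The 1 month library was level with obstructed kidneys there, and 1 week with its sham. On chr19:5654001-5655000, 8.71 kb downstream of Sipa1, a GTPase-activating protein for Rap, 21 positions with 2342 and 1883 reads went from 36.1% at 1 week to 48.3% at 1 month. There the ischemia sham was at 31.4%, the UUO sham at 35.7% and the UUO libraries at 49.0% and 50.6%. On chr17:71638001-71639000, 21.4 kb downstream of Emilin2, an extracellular matrix glycoprotein gene, the levels were 54.0% at 1 week, 67.5% in the ischemia sham and 79.0% at 1 month, and the difference was 24.92 ± 3.68 points (quasi-binomial adjusted p = 0.493). A window on chr8:87296001-87297000 went from 28.3% to 50.1%, with all 6 other libraries between 35.8% and 42.5%. On chr17:25367001-25368000, 9.06 kb downstream of Gnptg, the sham lay with 1 month instead. The levels were 50.1% at 1 week, 68.6% in the ischemia sham and 68.0% at 1 month, with 60.6% in the UUO sham and 65.8% and 63.3% in UUO.

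The 3 lower windows of the same list lay within 2.93 kb of a placed start. The window on chr12:3235001-3236000, which holds the start of Rab10os, went from 49.5% at 1 week to 27.2% at 1 month, with the ischemia sham at 32.1% and the obstruction libraries at 41.3% to 48.4%. On chr2:119148001-119149000, 2.93 kb downstream of Gm14207, 28 positions stood at 51.7% and 37.5%, with the ischemia sham at 43.6%. A window at the start of Mllt6 on chr11:97524001-97525000 stood at 21.3% and 13.4%, with the sham at 19.9%. All 3 had adjusted p-values of 0.493 in the quasi-binomial model.

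Among the windows shared by all libraries that Fisher's exact test counted, 8 were higher and 7 lower at 1 month. The largest rise was on chr4:132684001-132685000, 1.55 kb upstream of Wasf2, a WAVE complex subunit that drives actin branching. It stood at 44.6% at 1 week (101 reads summed over 3 positions, exact 95% interval 34.7 to 54.8%). The sham stood at 66.3% and 1 month at 82.9% (73.0 to 90.3%). Near Vim, which encodes the intermediate filament vimentin of mesenchymal and regenerating tubule cells, a window on chr2:13501001-13502000, 5.06 kb downstream of the start, stood at 27.0% at 1 week (19.5 to 35.6%), 59.5% in the sham and 59.6% at 1 month (53.4 to 65.6%). The 1 week library was the lowest of the 8 there, the other 5 lying between 47.3% and 64.6%. All 5 positions of the window, most of them edge positions, were lower at 1 week. They held 21 to 28 reads each at 1 week, and neighbouring positions share reads, so they are not independent. A window 9.75 kb downstream of Fgfrl1, a fibroblast growth factor receptor without a kinase domain, stood at 54.7% at 1 week, 75.2% in the sham and 83.6% at 1 month. The remaining rises lay 14.7 to 56.1 kb from the starts of Ostf1, Hsph1, Emb and Chaf1b or, on chromosome 2, 654 kb from any placed start. Their differences were 26.47 to 38.13 points.

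The largest fall was on chr9:56071001-56072000. It stood at 71.6% at 1 week (62.1 to 79.8%), 34.4% in the sham and 26.4% at 1 month (21.2 to 32.2%), and the obstruction libraries lay between 18.3% and 36.4%. All 10 of its positions were lower at 1 month, and its 8 inside positions went from 75% to 26.5%. Neighbouring positions share reads, so these are not independent either. The 1 week library stood alone there with 10 to 11 reads a position, and the 2 ischemia libraries differed by -45.14 ± 6.73 points (SE; quasi-binomial adjusted p = 0.495). Other falls lay 32.4 kb upstream of Nf1, the Ras-inactivating neurofibromin, with 75.7% at 1 week and 47.9% at 1 month, and 50 kb upstream of Arntl, the clock factor BMAL1, with 81.8% and 54.9%. In the quasi-binomial model the adjusted p of the 15 windows ran from 0.495 to 1.

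For 2 of the counted falls the spread of reads over positions differed between the libraries. On chr5:143583001-143584000 the window fell from 60.8% to 23.3%, yet 3 of its 4 positions had no methylated read at either time, and the remaining edge position stood at 81.2% with 149 reads at 1 week and 68.6% with 86 reads at 1 month. The 2 UUO libraries, of 1 group, stood at 11.7% and 53.9% there. On chr7:19946001-19947000, 1.17 kb upstream of Cd3eap, a subunit of RNA polymerase I, the window fell from 56.0% to 29.2%, while the edge position with most reads at 1 week stood at 90.5% of 116 reads and at 77.6% of 49 reads at 1 month, and 3 positions had no methylated read in either ischemia library. When positions needed 10 reads in the ischemia libraries only, these differences were -6.11 and -5.69 points, and without edge positions they were 8.43 and 0.54 points. As means over positions they were -3.15 and -0.52 points, while the other 13 windows of the list kept differences of at least 21.28 points in either direction.

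**Figure D4:**
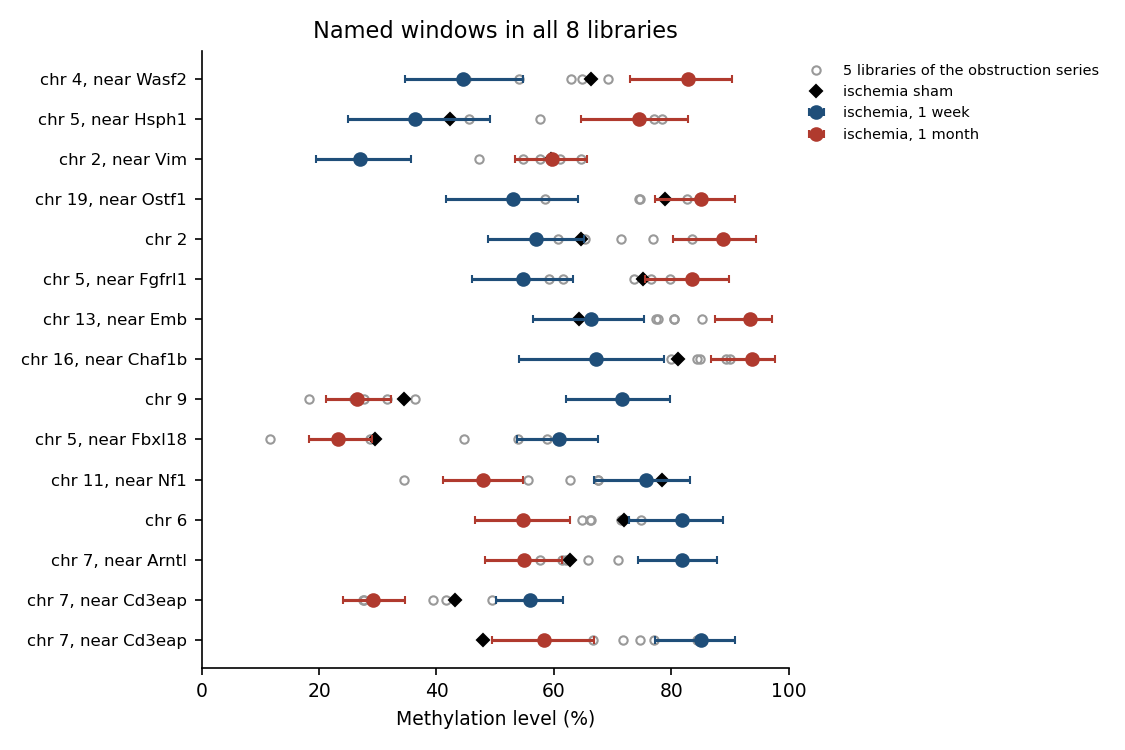
Methylation level in percent (x axis) of the 15 windows counted by Fisher's exact test on positions shared by all 8 libraries (y axis, labelled by chromosome and, within 100 kb, the nearest placed gene start). Blue and red points are 1 week and 1 month with exact 95% intervals of read counting, black diamonds the ischemia sham and open circles the 5 obstruction libraries: the Vim window has 1 week alone at 27.0% and the chromosome 9 window has it alone at 71.6%.

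Inside fragments 27 shared windows were higher and 5 lower, and those described here were singled out after their values were seen. The largest rise, 36.66 points on chr10:80797001-80798000 (53 and 42 reads), went from 14.3% at 1 week to 50.9% at 1 month, with the ischemia sham at 36.6%, the UUO sham at 30.6% and UUO at 30% and 27.8%. On chr11:77319001-77320000, 6.78 kb downstream of Trp53i13, 5 positions stood at 37.9% at 1 week (30.7 to 45.4%), 41.0% in the sham and 72.1% at 1 month (67.0 to 76.8%), with the UUO sham at 51.9% and the UUO libraries at 77.2% and 70.5%. On chr2:173361001-173362000 the levels were 21.4%, 34.8% and 56.4% in the same order, with 37.2% in the UUO sham and 61.1% and 62.6% in UUO. On chr8:10653001-10654000 they were 22.4%, 31.4% and 52.4%, with 43.0% in the UUO sham and 59.3% and 58.4% in UUO. In these last 3 windows, unlike the one on chromosome 10, 1 month lay nearer to the UUO libraries than to either sham. A window 0.833 kb upstream of Ccdc71 rose from 42.0% to 71.2%, with the sham at 56.0%. The 3 largest falls were the windows on chr9 and near Nf1 and Arntl described above. On chr9 the UUO libraries, at 32.2% and 27.8% inside fragments, lay above their sham at 20.1%, and near Arntl they lay on both sides of it, at 67.8% and 56.2% against 58.4%. The next fall, on chr17:85259001-85260000, stood at 72.9% at 1 week, 80.9% in the ischemia sham, 81.3% in the UUO sham, 43.4% at 1 month and 53.3% and 53.0% in UUO.

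This pattern was examined over a wider set, the windows past an adjusted p of 0.01 in Fisher's exact test with levels at least 10 points apart. On the member windows 368 were higher at 1 month (0.323%) and 82 lower (0.0720%), and inside fragments 387 (0.778%) and 83 (0.167%). The ischemia sham lay nearer to 1 week than to 1 month in 224 of the 367 higher windows with a sham value (61.0%), against 44.2% among all windows that were higher at 1 month. Inside fragments the shares were 67.8% and 49.8%. On the shared windows the share was 64.2% of the higher windows over all positions and 69.4% inside fragments. Among all shared windows at 30 to 70% in the sham, in either direction, it was 53.2% and 55.5%. Under the stricter rule of 25 points the order was the opposite over all positions, with the sham nearer to 1 week in 8 of 19 higher windows (42.1%), and 59.5% inside fragments. The lower windows had the sham nearer to 1 week in 53.1%, and in 57.6% of all lower windows. The sham was not used to choose the windows, but 1 sham library serves all of them. As means over positions, 361 of the 368 higher and 78 of the 82 lower windows kept their direction, and inside fragments 381 of 387 and 80 of 83.

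On average, the windows at least 10 points higher at 1 month were also higher in obstructed kidneys than in their sham. The obstruction libraries share no library with the ischemia difference. On the shared windows inside fragments, the 320 higher windows (0.760%) averaged 40.79% at 1 week, 46.07% in the ischemia sham and 57.79% at 1 month, and 48.62% in the UUO sham with 59.16% and 56.84% in UUO. Both UUO libraries lay above their sham in 248 of them (77.5%), against 47.6% of all windows and 57.9% of all windows at 30 to 70%. The libraries of UUO with 5AZA averaged 48.32% and 46.15% there, close to the UUO sham. They also lay below UUO among all windows at 30 to 70%, so this is not particular to the higher windows. Those windows averaged 51.12% and 49.62% with 5AZA, 58.67% and 58.4% in UUO and 53.99% in the UUO sham. In the 65 lower windows (0.154%) the means were 60.71% at 1 week, 52.84% in the ischemia sham and 43.02% at 1 month, and 56.74% in the UUO sham with 52.70% and 54.80% in UUO. Both UUO libraries were below their sham in 49.2% of these, against 23.4% of all windows.

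Over all positions the picture was alike. The 302 higher windows (0.328%) averaged 58.14% at 1 week and 73.36% at 1 month, and both UUO libraries lay above their sham in 75.5%, against 54.9% of all windows at 30 to 70%. Among the 77 lower windows (0.0837%) both were below it in 53.2%, against 27.9% of all windows. Across the 42104 shared windows inside fragments, the ischemia difference and the difference of UUO from its sham had a Pearson's r of 0.23, as a description of windows that share local level and depth. In the class of 30 to 70% r was 0.26 over 4761 windows, where UUO exceeded its sham by 4.54 points and 1 month exceeded 1 week by 2.32 points. Under the stricter rule of 25 points the member windows were less uniform. Among windows with 30 reads in all 8 libraries, UUO was above its sham in 8 of 13 higher windows over all positions (61.5%). Among all higher windows the share was 62.4%. Inside fragments these shares were 87.9% and 68.3%. For lower windows they were 60.0% over all positions and 57.1% inside fragments, against 53.3% and 58.3% of all lower windows. The UUO sham enters every one of these values as a single library, and its part in them was not tested.

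**Figure D5:**
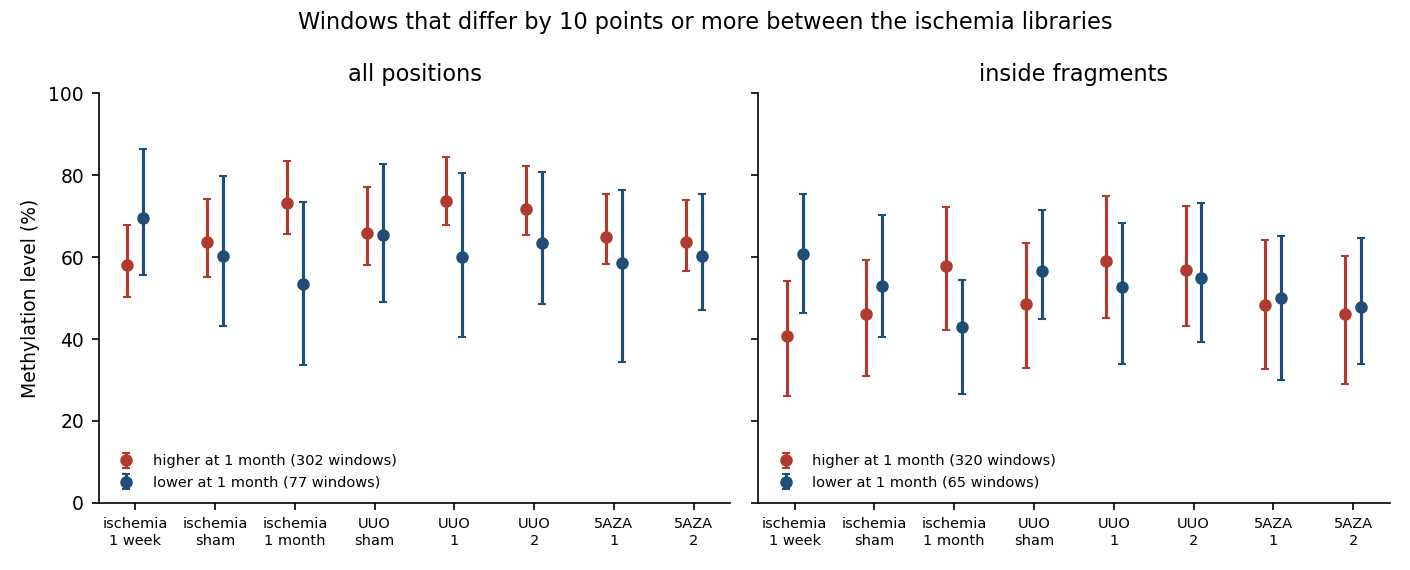
Mean methylation level in percent (y axis) in each of the 8 libraries (x axis) of shared windows past an adjusted p of 0.01 whose levels in the ischemia libraries lay at least 10 points apart, for all positions and inside fragments. Red points are windows higher and blue points windows lower at 1 month, bars run from the lower to the upper quartile of windows, and in the higher windows inside fragments the UUO libraries at 59.16% and 56.84% lie with 1 month at 57.79%.

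The promoters that could be measured were on average nearly unmethylated at both times. Placement needed at least 8 matched CpG dinucleotides, so promoters poor in CpG were not measured, and the low level holds for CpG-rich promoters only. RefSeq promoter sequences (250 bases before to 50 after the start, GRCm38.p6 table) were placed on the files' coordinates by the spacing of their CpG dinucleotides, and 7703 autosomal promoters of 6872 genes had at least 3 positions inside fragments. Their mean level was 4.0% at 1 week and 4.17% at 1 month, with 53.9% of promoters higher at 1 month. Of these promoters 91.2% were below 10% in the sham, with 2.51% and 2.63%, and 7.62% were at 10 to 30%, with 12.92% and 13.66%. In the 49 promoters at 30 to 70% the difference was 0.74 points, with 44.71% and 45.45%. The 23 promoters at 90% or more were lower at 1 month, with 94.11% and 93.37%.

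The difference was smallest at placed gene starts, where few windows were of intermediate level. Windows inside fragments within 500 bp of a placed start differed by 0.17 points, those at 1000 to 2000 bp by 0.65 and those at 5000 to 20000 bp by 1.08 points. It was lower again further out, at 0.83 points for 20000 to 100000 bp and 0.75 points beyond, which together hold most windows (14015 and 15996). The share of windows at 30 to 70% was 0.642%, 8.72%, 15.3%, 15.9% and 13.4% over these 5 distances. Within that class the difference was 1.97, 1.87, 3.01, 2.45 and 1.84 points, so it did not follow the distance in 1 direction.

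Few of the measured promoters differed by a large amount. Past an adjusted p of 0.01 in Fisher's exact test and at least 5 points apart, 14 promoters were higher at 1 month (0.182%) and 9 lower (0.117%), and at 10 points 1 was higher (0.0130%) and 0 lower (0.0%). The promoter past 10 points was that of Gm16617, a predicted gene, on the minus strand of chr14:52608455-52608754. It and 3 other promoters are shown because they carried the most uniform or most deeply read differences, with capitals for the CpG dinucleotides that were measured inside fragments.
Gm16617: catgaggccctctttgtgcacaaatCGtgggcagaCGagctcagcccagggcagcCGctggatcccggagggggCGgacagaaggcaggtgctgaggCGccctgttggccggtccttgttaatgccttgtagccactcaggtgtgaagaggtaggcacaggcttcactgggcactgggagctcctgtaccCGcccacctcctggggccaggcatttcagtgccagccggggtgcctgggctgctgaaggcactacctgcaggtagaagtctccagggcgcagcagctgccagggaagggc
Gm30835: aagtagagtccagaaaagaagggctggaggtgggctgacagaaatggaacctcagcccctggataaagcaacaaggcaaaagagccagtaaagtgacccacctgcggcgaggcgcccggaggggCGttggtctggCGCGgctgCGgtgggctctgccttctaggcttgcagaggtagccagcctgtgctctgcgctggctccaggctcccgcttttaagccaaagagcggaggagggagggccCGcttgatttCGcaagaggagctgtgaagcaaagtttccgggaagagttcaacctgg
Henmt1: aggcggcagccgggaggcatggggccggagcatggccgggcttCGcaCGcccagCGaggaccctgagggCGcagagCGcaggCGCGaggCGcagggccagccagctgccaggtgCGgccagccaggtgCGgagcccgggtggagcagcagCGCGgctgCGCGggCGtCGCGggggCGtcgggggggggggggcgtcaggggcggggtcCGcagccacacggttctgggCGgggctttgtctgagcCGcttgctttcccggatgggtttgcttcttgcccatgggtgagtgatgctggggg
Tmem267: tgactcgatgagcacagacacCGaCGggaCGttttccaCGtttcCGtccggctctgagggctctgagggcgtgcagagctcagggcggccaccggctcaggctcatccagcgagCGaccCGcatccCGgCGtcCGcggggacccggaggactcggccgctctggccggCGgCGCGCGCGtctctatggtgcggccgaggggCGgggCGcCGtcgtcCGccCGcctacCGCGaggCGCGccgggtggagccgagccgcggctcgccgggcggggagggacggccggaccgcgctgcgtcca

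In the Gm16617 promoter all 6 measured CpG dinucleotides were higher at 1 month. Neighbouring positions share reads in this and the following promoters, so their like direction is not independent. Counted from the gene start, the most distal, at -225, stood at 24.5% of 94 reads at 1 week and 50% of 102 reads at 1 month, and the most proximal, at -60, at 31.9% and 45.5%. The whole promoter stood at 28.0% at 1 week, 30.7% in the ischemia sham, 34.4% in the UUO sham, 39.2% and 38.3% with 5AZA, 47.9% and 52.6% in UUO and 50.5% at 1 month. The ischemia difference of 22.49 points (Fisher's exact test, adjusted p = 6.49e-07) put 1 month among the UUO libraries and 1 week below all others.

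The Gm30835 promoter on the minus strand of chr5:7960343-7960642 was nearly unmethylated in 7 libraries, between 2.28% and 5.32%, and stood at 13.1% at 1 month. All 6 of its CpG dinucleotides were higher at 1 month, with 9.84 to 19.7% against 3.23 to 6.99% at 1 week. Tmem267, a transmembrane protein gene on the plus strand of chr13:120277030-120277329, had the deepest coverage of the 4, with 4620 reads at 1 month and 2545 at 1 week. Its level was 66.3% and 58.2%, and 23 of its 24 measured CpG dinucleotides were higher at 1 month. The mean over positions differed by only 4.12 points, since the reads of the 1 week library lay more on 5 distal positions of low level (93 reads each against 78 to 157 at the others, where 1 month had 100 against 180 to 362). The 2 UUO libraries stood at 65.5% and 52.0% and the 5AZA libraries at 48.2% and 65.2%, a wider spread than the 8.11 points between the ischemia times.

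Henmt1 encodes the methyltransferase that protects the 3′ ends of piRNAs in the germ line. Its promoter on the plus strand of chr3:108743225-108743524 went from 34.2% at 1 week to 24.9% at 1 month, with 27.5% in the ischemia sham and 20.1 to 34.7% in the obstruction libraries. Its distal end was lower at 1 month: at -207 the level went from 48.4% to 27.3% and at -181 from 57.4% to 30.8%, whereas at -98 it was 25.4% and 28.2%. The 10 positions from -207 to -122 were covered by 58 to 66 reads each and share reads, so they are not independent.

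A promoter's level comes from summed reads and so also moves when reads shift between its positions, and the mean of its position levels is given where the values differ by over 1.5 times. Among the other rises, the promoter of Eif4e, the cap-binding initiation factor, stood at 2.74% at 1 week and 9.38% at 1 month. This difference of 6.64 points was 11.24 as a mean over positions. Its positions from -246 to -62 held 18 or 19 reads each at 1 month, with 10.5 to 16.7% methylated, and neighbouring positions share reads. The promoter of Tob2, an antiproliferative factor, stood at 0.28% and 7.26%. Hormad2, which acts on meiotic chromosomes, stood at 54.2% and 62.6%, and Tlcd4 at 21.6% and 31.0%, where the mean over positions differed by 4.75 instead of 9.46 points. The promoter of Elfn2 stood at 5.84% and 12.4%, but 6 of its 7 positions were lower at 1 month, the mean over positions differed by 0.97 points, and reads per position at its unmethylated middle went from 154 to 77. Among the falls, Hip1, a clathrin adaptor, stood at 11.1% and 1.21%, with all 5 positions lower at 1 month, and Dbn1, the actin-binding drebrin, at 11.9% and 2.49%. The Dbn1 value rested on its 2 distal positions, which held 44 reads each at 1 week but 10 and 12 at 1 month. Its mean over positions differed by -3.98 points, and the UUO pair stood at 1.48% and 10.0%. Rab12, a small GTPase of membrane traffic, stood at 6.32% and 0.0%. At 1 week, 9 of its 10 positions stood at the same 6.67% of 15 or 30 reads. The Rab12 fall thus rests on few methylated reads, and neighbouring positions share reads. Vps52, a subunit of the Golgi tethering complex GARP, stood at 12.6% and 6.58%, and Nol4l at 13.0% and 6.14%. Fbxo39 and Gm13205 stood at 29.9% and 20.9% and at 53.8% and 44.7%. As means over positions, Vps52 differed by -1.72 points, Fbxo39 by -3.34 and Gm13205 by -4.07, against -5.98, -9.04 and -9.02 from summed reads. For Gm16617, Gm30835, Henmt1, Hip1, Hormad2, Tob2 and Rab12 both values differed by less than 1.5 times. That comparison concerns weighting only, and not reads shared between positions.

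The enzymes that write and remove the mark showed no promoter difference past an adjusted p of 0.01. All 7 listed genes were measured, with 9 promoters whose differences ran from -1.31 to 0.88 points with a median of 0.11, beside a median of 0.07 over all promoters. Dnmt1 stood at 4.47% at 1 week and 4.58% at 1 month, Uhrf1 at 8.84% and 8.60%, and Dnmt3b at 0.45% and 0.17%. Dnmt3a had 1 promoter of intermediate level, at 23.0% and 21.69%, with 42.61% in the ischemia sham. Tet1, Tet2 and Tet3 stood at 3.37% and 3.75%, at 0.37% and 0.80% and at 5.60% and 4.48%. Of 10 nephron genes 3 were measured, with 4 promoters between -1.91 and 1.28 points and none past the threshold: Lrp2, the endocytic receptor megalin of the proximal tubule, stood at 2.03% and 0.65%, Lhx1 at 6.31% and 6.84%, and the promoters of Pax2 at 1.36% and 2.64% and at 3.77% and 1.86%. Of 8 fibrosis genes 1 was measured, Tgfb1, at 0.0% and 0.29%. None of the 5 tubule injury, 5 immune cell and 3 endothelial genes was measured, so the makeup of the tissue could not be checked by these lists.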

How the data were processed

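DNA methylation was measured by RRBS in 8 libraries. The submitters' processing notes name Bowtie and the build mm9, and filters, caller and versions were not given in the sources used here. Per CpG dinucleotide, the deposited tables hold the authors' count of covering reads and the count of methylated reads, not normalized, and a rounded fraction of methylated reads computed by the authors, which gave no value here. Groups came from the sample titles.

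With Python 3.11.15, numpy 2.4.6 and numba 0.67.0, positions with 10 or more reads were summed into windows of 1000 bp, and 26350 positions on X and Y were left out. A position was compared in read depth with its neighbours only where these held 40 reads summed over the libraries. Edges, and the second set of windows inside fragments, follow the rule in the results. Read intervals are exact binomial at 95%, and intervals, counting SE and Fisher's p cover counting error only. Reads of a window or promoter are summed over its CpG positions, so a read over several positions counts at each. PCR copies are not told apart either, so these intervals and errors are too narrow. The quasi-binomial model had 1 mean per group, a dispersion moderated with limma 3.58.1 in R 4.3.3 and not below 1 (2 residual and 8.64 prior degrees of freedom, prior dispersion 1.37), and an F test with Benjamini-Hochberg adjustment over 93730 windows. It assumes that single libraries vary like the pairs, whose source, animals or technique, the labels do not give. Tests were tested on simulated data. Alternatives were other read minimums, window sizes, thresholds, classes, a depth limit, thinned reads and position levels averaged within windows (both added after the data were seen), edgeR 4.0.16 and limma on log2 ratios (pseudocount 1).

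Named windows were to be the 10 largest rises and falls among shared windows counted by Fisher's exact test, and fewer passed. No annotation of mm9 was used. Promoters were placed, in a step added later that departs from the planned naming by annotation alone, by matching runs of 5 CpG spacings, with every measured CpG on a promoter CpG and at least 8 matched. Of 32851 sequences 15982 had 8 CpG, 8021 were placed at 1 position and 106 at several, which were left out. The table's chromosome, not used for placing, was matched by 8009 (99.85%), and the other 12 were left out. Named promoters are the 8 largest rises and falls past the rule of 5 points. The promoters, the windows inside fragments and those of smallest p were chosen after their values were seen, and all members and lists were chosen with earlier results of these data known.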

Additional observations from a re-analysis of the deposited data

How the results depend on the processing

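The overall difference of 0.68 points was 0.57 with positions weighted equally, 0.71 without edge positions and 0.71 at 5 reads, 0.66 in 300 bp windows, 0.59 with 5 positions per window, 0.62 on positions of all 8 libraries and 0.75 with reads thinned to equal depth, an alternative chosen after seeing the data. Averaging the positions within windows, also added later, gave 0.75. It turned with reads pooled over positions (-2.45) and with each library on its own positions (-0.12). Pooled within level classes, 1 month and 1 week stood at 8.95% and 8.99% below 10% and at 16.35% and 16.46% at 10 to 30%. They stood at 48.70% and 47.49%, 82.53% and 81.43%, and 93.96% and 93.61% in the 3 higher classes. Median reads per window were 2860 and 2591 at 20 or more positions, and 179 and 189 at 3 to 5. The cause of the turn was not tested.

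By class, the difference below 10% (0.0 with all positions) was 0.18 with classes by the UUO sham, 0.22 without edge positions, 0.08 under a depth limit and 0.14 with positions averaged within windows. At 10 to 30% it was 0.13, 1.53 and 0.12 under these settings, 0.06 at 20 reads, 0.24 in 300 bp windows, 0.06 with 5 positions and 0.35 with positions averaged. At 30 to 70% it was 1.56 by the UUO sham, 1.51 by the mean of both ischemia libraries, 2.25 without edges, 1.57 with 5 positions and 1.74 with positions averaged, against 1.65. At 70 to 90% these were 1.02, 1.00, 0.78 and 1.01, against 0.95, and at 90% or more 5 positions gave 0.36 against 0.40. By density, leaving out edges gave 0.94 at 3 to 5 positions, 0.44 at 10 to 19 and 0.23 at 20 or more. A minimum of 20 reads gave 0.73 at 6 to 9 positions, 0.48 at 10 to 19 and -0.01 at 20 or more. In 300 bp windows these were 0.68, 0.37 and 0.07, and the depth limit gave 0.07 at 20 or more.

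Fisher's exact test counted 29 windows, and 201 at 15 points, 9 at 35 points, 51 at an adjusted p below 0.05, 52 without edges, 14 at 20 reads and 48 in 300 bp windows. For 2 named windows, on chromosome 5 from 143583001 and chromosome 7 from 19946001, the difference turned to 8.43 and 0.54 points when positions needed reads in the ischemia libraries only and edges were left out. Only 3 of the 15 had values at 20 reads, and 3 without edges on shared positions, where their calls held.

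The quasi-binomial model called 0 windows, and between 0 and 18 without 1 library of a pair, the 18 without either 5AZA library. The ischemia groups share no replicate number, and a replicate block over the numbers of UUO and 5AZA called 26 windows, 21 higher and 5 lower. Deviations of like-numbered libraries correlated at 0.07, so the numbers are not taken as a pairing. Depth limits single windows, with medians of 268 and 284 reads.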

Other observations

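Of the windows with the smallest p in the quasi-binomial model, 2 held far more reads than any other named here. The window on chr17:39982001-39983000 (mm9) had 673741 reads at 1 month and 574626 at 1 week over 100 positions, and stood at 27.8% and 25.0%, with 24.9% in the ischemia sham, 30.8% in the UUO sham, 27.5% and 28.0% in UUO and 26.0% and 25.2% with 5AZA. Its adjusted p was 0.101, the smallest of all windows. The window on chr16:11144001-11145000, with 103800 and 68471 reads over 16 positions, stood at 22.3% at 1 month and 18.6% at 1 week, with 16.7% in the ischemia sham and 17.6 to 20.8% in the other 5 libraries.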
